A study of Mus musculus with 12 samples.

Results

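Netrins, Slits and ephrins are cues that steer growing axons, and their receptors sit on the axon's tip. DCC and neogenin receptors mediate attraction to netrins, UNC5 receptors mediate repulsion from them, ROBO receptors mediate repulsion from Slits, and Eph receptor tyrosine kinases signal in both directions with membrane-bound ephrins on the neighbouring cell. In sensory ganglia these genes are known from the embryo, where axons reach skin, viscera and spinal cord, and several of them stay on in adult neurons. The 38 genes described here are the UNC5, DCC, neogenin, netrin, netrin-G, ROBO, SLIT, EPHA, EPHB, ephrin-A and ephrin-B genes whose symbols matched an Ensembl identifier, out of 41388 genes in each library. The rule that picks them uses their names and no value, though the list was drawn up with earlier results of these data known.

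The libraries came from dorsal root ganglia of 3-month-old C57BL/6 mice, from spinal levels L6 and S1 (L6S1), whose neurons supply pelvic organs among other targets, or L3, L4 and L5 (L345), whose neurons supply the hindlimb among other targets. There were 3 libraries each of male L6S1 (A, B and C), female L6S1 (A, B and C), male L345 (A, B and C) and female L345 (B, C and D). All mice carried RetFloxedEGFP, in which a floxed RET9 knock-in at 1 Ret allele gives way to EGFP, and Scn10a<tm2(cre)Jnw>, a Cre driven from the NaV1.8 sodium channel gene. Cells of both levels had therefore undergone the same excision, no library lacked it, and a cell needed both Scn10a-driven Cre and Ret expression to be sorted by its EGFP. The genotype field of 4 libraries names only 1 of the alleles, while the source names of all 12 give both. Each library was a pool of 12 to 32 ganglia from 2 to 8 mice, and the fields of male L345 C disagree on its pool (5 mice or 3). The labels do not say whether any mouse gave ganglia to both levels.

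Total counts ran from 16176436 in female L6S1 A to 26694404 in female L345 D, so that 3 counts stood for 0.112 to 0.185 CPM. Markers of small-diameter sensory neurons summed to 13300 to 18900 CPM in L6S1 libraries, against 12400 to 13700 CPM in L345 libraries, with Scn10a itself at 359 CPM or more in every library. Calca alone gave 5760 to 10300 CPM of this in L6S1 and 5820 to 6620 CPM in L345. The 9 markers went both ways, 4 with positive and 5 with negative log2 fold changes (L6S1 minus L345). In the test described below, 2 (Tac1 and Trpv1) were called higher and 0 lower. The 7 satellite glia markers summed to 799 to 1830 CPM in L6S1 and 1260 to 1760 CPM in L345, and the 5 Schwann cell markers to 2540 to 3920 CPM in L6S1 and 2400 to 2780 CPM in L345, of which Pmp22 alone gave 2240 CPM or more. Fibroblast markers summed to 126 to 331 CPM in L6S1, above all L345 libraries at 69 to 93.1 CPM. Of this, Dcn alone gave 112 to 283 CPM in L6S1 and 57.5 to 82.8 CPM in L345. The ranges of all other fibroblast markers overlapped between the levels. The 7 immune markers summed to 10.4 to 159 CPM in L6S1, also above all L345 libraries at 3.59 to 5.79 CPM, and C1qa had no count in 10 of 12 libraries. C1qb (2.13 to 10.8 CPM in L6S1, 0.625 to 1.41 CPM in L345) and Trac (2.38 to 5.86 and 0.524 to 1.18 CPM) did not overlap between the levels. The ranges of all other immune markers did. Female L6S1 C had the highest immune and endothelial sums, 159.5 and 11.18 CPM, and Cd74 alone gave 136.5 CPM of its immune sum. 4 libraries have titles of another format (9CGNAV): male L6S1 C, female L6S1 B and C, and female L345 D.

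Levels below are RPKM, counts scaled to the gene length in the deposited tables and to library totals adjusted by TMM, so that genes can be set against each other. Mean levels in the set ran down to 0.00166 RPKM (Robo3), and Efna1, the ephrin-A1 gene, led it. Efna1 averaged 67.4 ± 16.2 RPKM (SD, n = 12) and made up 51.6 to 74.8% of the summed RPKM of the set in each library. Efna5, the ephrin-A5 gene, followed at 17.2 ± 3.38 RPKM and Robo2, a Slit receptor gene, at 8.18 ± 2.11 RPKM. Each of these lay above the next in 12 of 12 libraries, Efna1 over Efna5 by 1.96 ± 0.47, Efna5 over Robo2 by 1.10 ± 0.48 and Robo2 over Ephb6 by 1.54 ± 0.65 (mean log2 ratio ± SD). From Ephb6 to Epha7 came 7 genes within a narrow range, Ephb6 (2.83 RPKM), Efnb2 (2.06), Slit1 (1.76), Efnb1 (1.59), Neo1 (1.55), Unc5b (1.29) and Epha7 (1.28), and no neighbours among them differed beyond 1 SD of their log2 ratio. Epha7 stood above Unc5d (0.68 RPKM) by 0.92 ± 0.30 in 12 of 12 libraries.

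Of the 38 genes, 10 averaged at least 1 RPKM, 10 lay between 0.1 and 1, and 18 lay under 0.1. Below Unc5d the order was Efna2 (0.505 RPKM), Epha5 (0.424), Unc5c (0.384), Unc5a (0.378), Epha8 (0.317), Robo1 (0.26), Epha10 (0.24), Epha3 (0.158) and Efna3 (0.13), and no neighbours there differed beyond 1 SD of their log2 ratio. The classical netrin side was nearly unread: Dcc, the attractive netrin receptor gene, had 0 to 5 counts in any library and Ntn1, the netrin-1 gene, 0 to 4. Receptors of the UNC5 family and neogenin were thus measured with almost no count for either netrin gene of the set. The plot of levels in 12 libraries shows this range gene by gene.

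**Figure D1:**
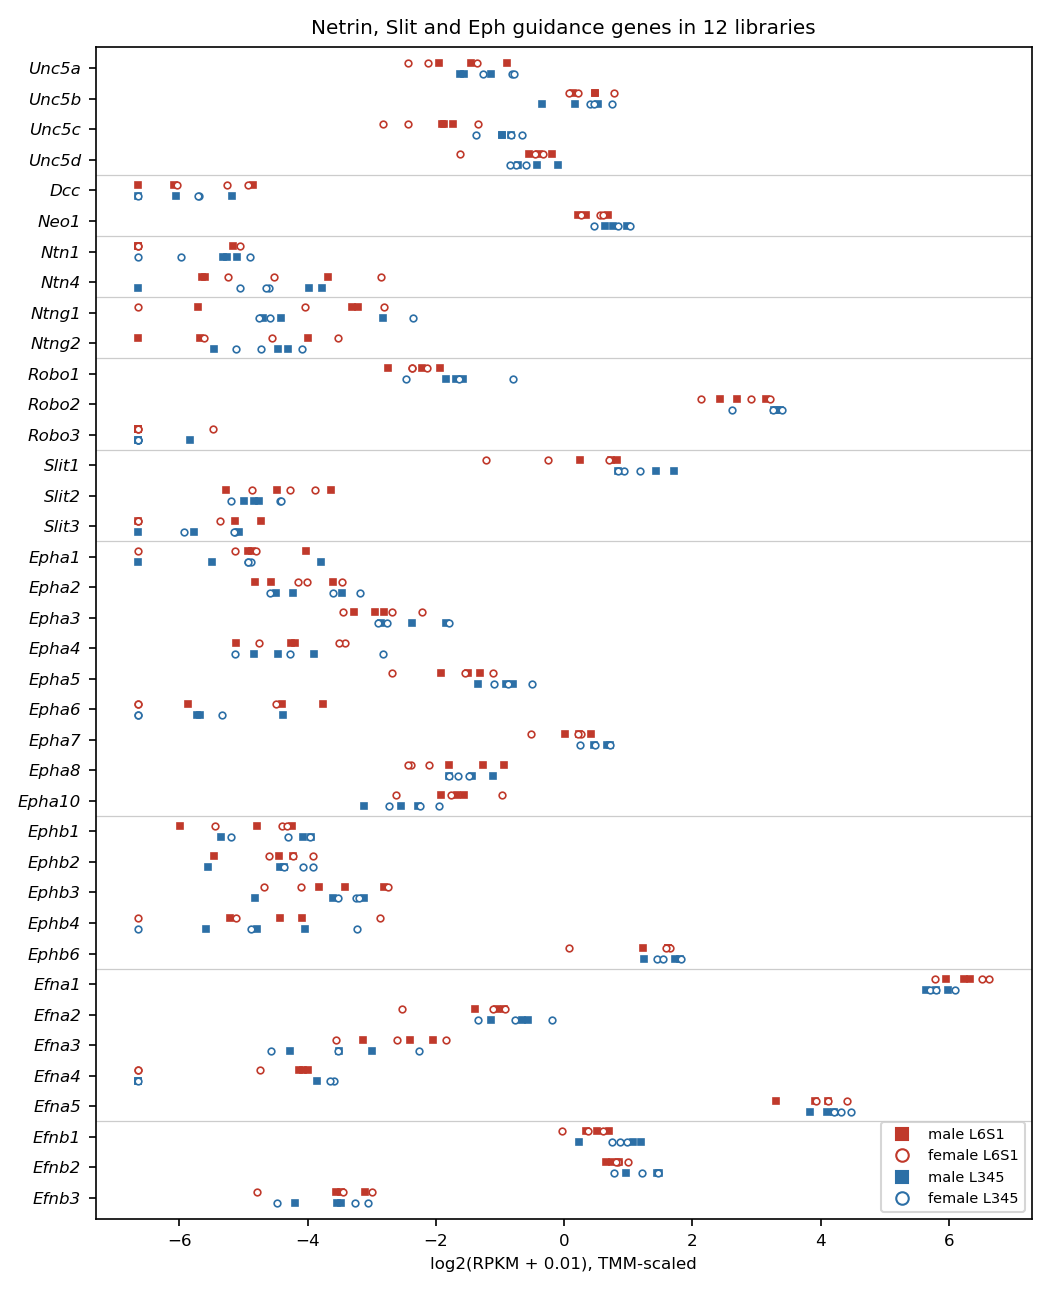
Level of each of the 38 genes as log2 of RPKM plus 0.01 (horizontal axis), with 1 point per library, L6S1 in red above L345 in blue, squares for males and open circles for females. Efna1 lay at the far right in every library, and points at the left edge are libraries with no count.

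Efna1, Efna3 and Efna4 are neighbours on chromosome 3, all on the minus strand, with 32756 bases between Efna1 (89271733 to 89281142, GRCm38) and Efna3 (89313899 to 89322965), and 10424 bases between Efna3 and Efna4 (89333390 to 89338028). Their levels lay far apart: Efna1 had 1652 to 4344 counts per library, Efna3 2 to 15 and Efna4 0 to 3. The sequences before their RefSeq starts (GRCm38.p6, minus strand, 5′ to 3′) are shown because these 3 paralogs sit side by side at such different levels. Bases that GENCODE M21 places in an exon were taken off, and capitals mark the GC box GGGCGG or its complement CCGCCC on either strand.
Efna1, chr3:89279646-89279895: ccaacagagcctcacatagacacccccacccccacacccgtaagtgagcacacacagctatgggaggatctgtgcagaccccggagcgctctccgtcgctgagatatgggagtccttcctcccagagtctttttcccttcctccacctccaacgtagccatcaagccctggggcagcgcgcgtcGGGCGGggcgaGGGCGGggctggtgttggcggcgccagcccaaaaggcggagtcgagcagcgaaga
Efna3, chr3:89322966-89323189: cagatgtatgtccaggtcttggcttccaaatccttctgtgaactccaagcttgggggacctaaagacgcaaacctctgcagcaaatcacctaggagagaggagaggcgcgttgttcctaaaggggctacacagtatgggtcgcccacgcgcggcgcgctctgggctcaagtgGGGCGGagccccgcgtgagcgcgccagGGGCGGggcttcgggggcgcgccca
Efna4, chr3:89338029-89338278: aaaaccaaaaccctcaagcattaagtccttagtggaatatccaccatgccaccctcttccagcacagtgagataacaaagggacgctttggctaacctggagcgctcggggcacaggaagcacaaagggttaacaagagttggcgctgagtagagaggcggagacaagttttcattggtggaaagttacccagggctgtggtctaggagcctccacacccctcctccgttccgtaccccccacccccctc
The Efna1 window, before the inner of its 2 RefSeq starts, held 18 CG dinucleotides and 2 GC boxes. The Efna3 window, before the outer of its 2 starts, held the same numbers, at a mean level of 0.13 RPKM. The window before the inner start of Efna3 held 31 CG dinucleotides and 3 GC boxes, and that before the outer start of Efna1 kept 59 bases outside exons, with 2 CG dinucleotides and no GC box. The Efna4 window held 7 CG dinucleotides and no GC box. Over all 32851 RefSeq windows the median was 6 CG dinucleotides in 250 bases, and 32.7% held a GC box (29.1% in the 224 bases kept for Efna3). Which start each gene used was not measured, and no factor was measured at any of these windows. Of the 38 genes, 33 had a RefSeq window.

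Between the levels, Unc5c, a repulsive netrin receptor gene, was the only one of the 38 that passed the test, and it was lower at L6S1. The test was edgeR's quasi-likelihood F-test on counts with Benjamini-Hochberg adjustment over all 15281 genes tested, and a gene counts as called at an adjusted p under 0.05. Of the 38 genes, 25 passed the filter on low counts: 1 fell, none rose and 24 were not called. Over all genes tested, 356 were called (2.33%), 222 of them higher (1.45%) and 134 lower (0.877%) at L6S1, so 1 of 25 is close to that background. The estimates of the 25 were negative for 18 and positive for 7, with a median log2 fold change of -0.28, against -0.06 for all genes tested (8475 negative and 6806 positive). At an unadjusted p under 0.05 stood 11 of the 25 (44%), against 4060 of all genes tested (26.6%). In these bulk pools, fewer cells of a type and less RNA per cell cannot be told apart.

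Unc5c encodes a netrin receptor with a death domain and lies on chromosome 3 from 141465564 to 141834924 on the plus strand (GRCm38, ENSMUSG00000059921). It read 0.264, 0.257 and 0.290 RPKM in male L6S1 A, B and C and 0.386, 0.175 and 0.131 RPKM in female L6S1 A, B and C, against 0.500, 0.500 and 0.551 RPKM in the 3 male L345 libraries and 0.551, 0.623 and 0.375 RPKM in female L345 B, C and D. Each L6S1 value was under the same-sex L345 mean, and the only overlap was female L6S1 A (0.386) above female L345 D (0.375). For such counts against the same-sex mean, here and below, no share over all genes is given. The means were 0.251 ± 0.0897 RPKM at L6S1 and 0.517 ± 0.0827 RPKM at L345 (SD, n = 6 each), from 38 to 94 counts in L6S1 libraries and 120 to 194 counts in L345 libraries. The fitted log2 difference, L6S1 minus L345, was -1.06 ± 0.24 (SE, edgeR adjusted p = 0.0343). In males alone it was -0.93 ± 0.33 (edgeR adjusted p = 0.496) and in females alone -1.19 ± 0.34 (edgeR adjusted p = 0.129).

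When each library in turn was dropped, the Unc5c estimates ran from -1.34 to -0.91. Unc5c missed the threshold in 9 of 12 refits (edgeR adjusted p up to 0.105), which called 0.51 to 1.57% of all genes. It passed without female L6S1 A (edgeR adjusted p = 0.00033, 25.7% of all genes called), female L6S1 C (0.0408, 1.67%) or female L345 D (0.0257, 5.63%). Without female L6S1 B and C together the estimate was -0.68, with female L6S1 A as the only library of its group. With a glial score as a covariate the estimate was -1.12 (edgeR adjusted p = 0.153). With the title format as a term it was -0.87 (edgeR adjusted p = 0.0917). Within the 8 RetFloxEGFP-titled libraries, where female L6S1 A was again alone in its group, it was -0.81. The libraries titled 9CGNAV held 1 L345 library and gave no value of their own. Markers of fibroblasts (1 of 6 tested genes called higher) and of immune cells (3 of 4 tested genes called higher) differed between the same libraries without overlap of their sums, and their part in the Unc5c result was not tested. In all 25 alternatives the sign was negative, and 13 of them called the gene. The plot of Unc5c under each processing choice gives every estimate.

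**Figure D2:**
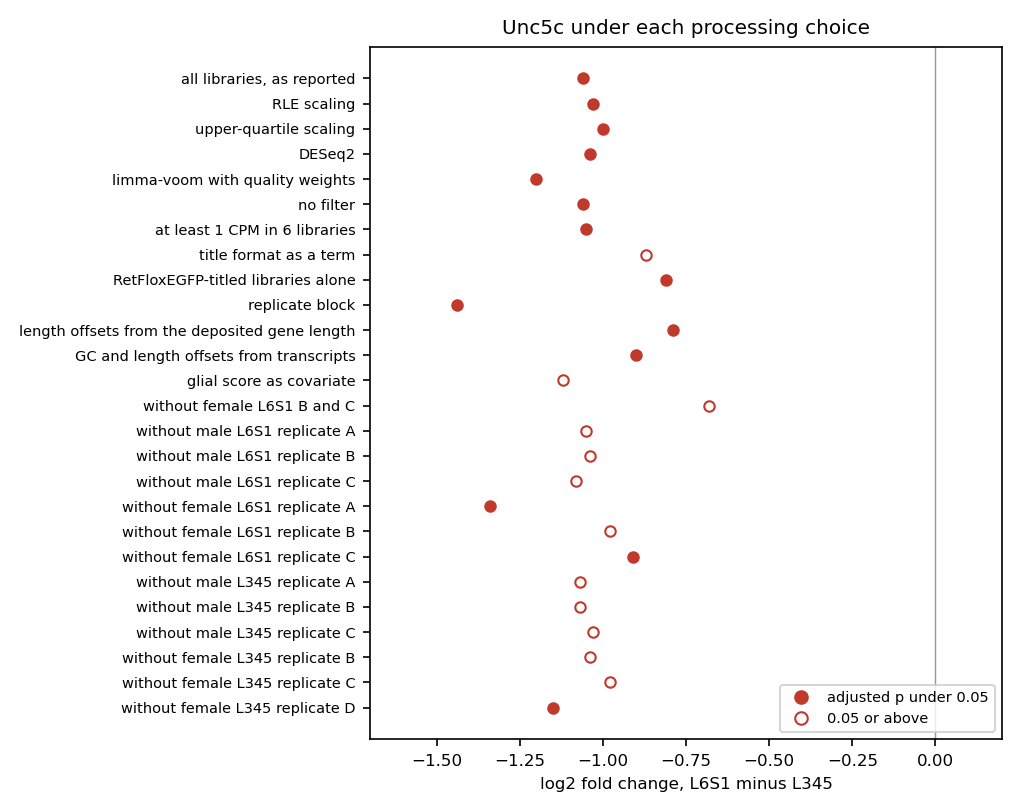
Level log2 fold change of Unc5c, L6S1 minus L345 (horizontal axis), as fitted on all libraries and under 25 alternatives (rows), filled where the adjusted p was under 0.05. Estimates ran from -1.44 to -0.68, and 9 of the 12 refits on 11 libraries are open points.

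None of the other UNC5 genes was called. Unc5b, the highest of the family, read 1.09, 1.39 and 1.38 RPKM in male L6S1 and 1.16, 1.05 and 1.71 RPKM in female L6S1, against 1.11, 0.780 and 1.43 RPKM in male L345 and 1.31, 1.37 and 1.67 RPKM in female L345. Its levels overlapped throughout, and the log2 fold change stood at 0.03 ± 0.18 (edgeR adjusted p = 0.921). Unc5d averaged 0.686 ± 0.194 RPKM at L6S1 and 0.674 ± 0.139 RPKM at L345 (SD, n = 6 each), a log2 fold change of 0.02 ± 0.21. Unc5a averaged 0.318 ± 0.131 RPKM at L6S1 and 0.437 ± 0.11 RPKM at L345 (-0.45 ± 0.26, edgeR adjusted p = 0.269), of which -0.96 ± 0.37 came in females and 0.06 ± 0.36 in males. That difference between the sexes was -1.02 ± 0.52 (edgeR adjusted p = 0.871 for the interaction). Summed over the 4 genes, UNC5 RPKM was 2.55 ± 0.305 at L6S1 and 2.91 ± 0.305 at L345. That Unc5c differed from its family was not tested.

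Neo1 encodes neogenin, a receptor for netrins and for repulsive guidance molecules. It read 1.60, 1.15 and 1.25 RPKM in male L6S1 and 1.47, 1.52 and 1.20 RPKM in female L6S1, against 1.68, 1.54 and 1.96 RPKM in male L345 and 1.79, 2.04 and 1.38 RPKM in female L345. All 6 L6S1 values were under the same-sex L345 mean while the ranges overlapped, and the log2 fold change of -0.34 ± 0.15 was not called (edgeR adjusted p = 0.166). Of the ligands, Ntn4, the netrin-4 gene, did not pass the filter, with 0.0106, 0.0678 and 0.0101 RPKM in male L6S1 and 0.0163, 0.128 and 0.0336 RPKM in female L6S1, against 0.0630, 0 and 0.0537 RPKM in male L345 and 0.0200, 0.0313 and 0.0298 RPKM in female L345. These stood for at most 11 counts in a library.

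Netrin-G proteins are membrane-anchored relatives of netrins that bind other partners than DCC and UNC5. Ntng1 read 0.0915, 0.0975 and 0.00912 RPKM in male L6S1 and 0.133, 0 and 0.0508 RPKM in female L6S1, against 0.0286, 0.0369 and 0.132 RPKM in male L345 and 0.0318, 0.185 and 0.0270 RPKM in female L345. Libraries of 1 group differed here by more than the levels did, and the log2 fold change had the widest error of the 25 genes (-0.26 ± 0.74, edgeR adjusted p = 0.834). Ntng2 did not pass the filter, with 0 to 5 counts a library, and 14% of its length overlaps another gene on the same strand.

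On the Slit side, the estimates of the receptors and of Slit1 were negative, and none was called. Slit1 encodes a secreted repellent. It read 1.75, 1.18 and 1.66 RPKM in male L6S1 and 1.62, 0.418 and 0.834 RPKM in female L6S1, against 2.70, 1.79 and 3.27 RPKM in male L345 and 1.91, 2.26 and 1.78 RPKM in female L345. It was the only tested member whose levels did not overlap, with all L6S1 libraries at or below 1.75 RPKM and all L345 libraries at or above 1.78 RPKM. Over all genes tested, 1.22% had all L6S1 libraries below all L345 libraries and 2.02% had them above, so 1 of 25 is near that share. The log2 fold change was -0.91 ± 0.26 (edgeR adjusted p = 0.0743). It was called lower by DESeq2 (10.8% of all genes called), by limma-voom (21.4%), without the filter (3.15%) and with a replicate block (34.9%). The fits with GC and length offsets (7.41%) and without female L6S1 A (25.7%) also called Slit1 lower. All of these called a larger share of all genes than 2.33%. With gene length offsets (2.49%) Slit1 was not called. Gene length offsets left a rho of -0.06 between log2 fold change and gene length, and GC and length offsets left -0.29.

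Robo2, the most abundant receptor gene of the set, read 6.48, 8.88 and 5.38 RPKM in male L6S1 and 9.27, 7.55 and 4.36 RPKM in female L6S1, against 9.95, 10.3 and 9.69 RPKM in male L345 and 10.6, 9.57 and 6.14 RPKM in female L345. All 3 male L6S1 libraries lay below all 3 male L345 libraries, whereas in females the ranges overlapped through female L345 D. No share over all genes is given for a split within 1 sex. The means were 6.99 ± 1.94 RPKM at L6S1 and 9.36 ± 1.62 RPKM at L345 (SD, n = 6 each; log2 fold change -0.42 ± 0.19, edgeR adjusted p = 0.178). Robo1, a second Slit receptor gene, averaged 0.197 ± 0.0379 RPKM at L6S1 and 0.323 ± 0.13 RPKM at L345 (-0.72 ± 0.27, edgeR adjusted p = 0.123), with 6 of 6 L6S1 values under the same-sex L345 mean. Slit2, another ligand gene, was at 0.0407 ± 0.0204 RPKM at L6S1 and 0.0273 ± 0.0079 RPKM at L345 (0.59 ± 0.39, edgeR adjusted p = 0.332), from 6 to 25 and 7 to 15 counts. Slit3 and Robo3 had at most 4 and 2 counts in any library.

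**Figure D3:**
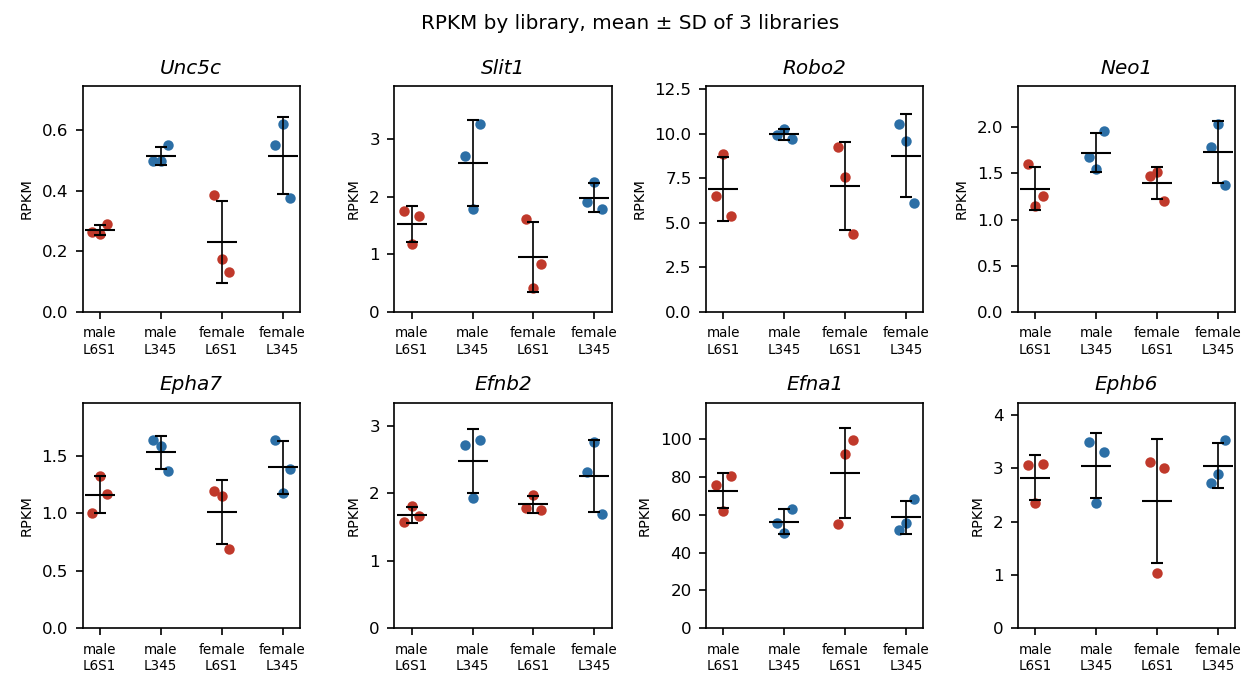
RPKM (vertical axes, from 0) of 8 genes in each library, with the mean and SD of the 3 libraries of each group, L6S1 in red and L345 in blue. Group means of all plotted genes but Efna1 were lower at L6S1 in both sexes, and of the plotted genes Unc5c alone was called. Efna1 exceeded the same-sex L345 mean in all L6S1 libraries but female L6S1 A, and Ephb6 had 1 low library, female L6S1 B.

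The Eph receptors, which bind ephrins and signal through a tyrosine kinase domain, gave no call between the levels. Epha7, the highest EPHA gene, read 0.999, 1.33 and 1.16 RPKM in male L6S1 and 1.19, 1.15 and 0.686 RPKM in female L6S1, against 1.64, 1.58 and 1.37 RPKM in male L345 and 1.63, 1.17 and 1.39 RPKM in female L345. All male L6S1 libraries lay below all male L345 libraries, with 6 of 6 L6S1 values under the same-sex L345 mean (log2 fold change -0.43 ± 0.16, edgeR adjusted p = 0.121). How many of all genes had either pattern is not given. Epha5 averaged 0.321 ± 0.109 RPKM at L6S1 and 0.527 ± 0.104 RPKM at L345 (SD, n = 6 each; -0.72 ± 0.24, edgeR adjusted p = 0.0995), also below in 6 of 6. Epha10, which encodes a receptor whose kinase domain is held to be inactive, had an estimate of the opposite sign. It averaged 0.303 ± 0.114 RPKM at L6S1 and 0.176 ± 0.051 RPKM at L345 (0.81 ± 0.28, edgeR adjusted p = 0.106), above the L345 mean in 5 of 6. Within the 8 RetFloxEGFP-titled libraries the Epha10 estimate was 0.27 (edgeR adjusted p = 0.684), and without female L6S1 B and C it was 0.28 (0.694).

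Epha3 (-0.54 ± 0.32), Epha8 (-0.28 ± 0.23) and Epha4 (-0.09 ± 0.49) were further from the threshold (log2 fold change ± SE, edgeR adjusted p of 0.285 to 0.923). Summed over 9 EPHA genes, RPKM was 2.28 ± 0.284 at L6S1 and 2.84 ± 0.217 at L345 (SD, n = 6 each). Among EPHB genes, Ephb6, which likewise encodes a receptor without kinase activity, read 3.06, 2.34 and 3.08 RPKM in male L6S1 and 3.12, 1.05 and 3.01 RPKM in female L6S1, against 3.49, 2.35 and 3.30 RPKM in male L345 and 2.73, 2.90 and 3.53 RPKM in female L345. Outside female L6S1 B the L6S1 libraries (2.34 to 3.12 RPKM) lay within or just below the L345 range, and the log2 fold change was -0.23 ± 0.23 (edgeR adjusted p = 0.522). Ephb2 (-0.02 ± 0.38) and Ephb3 (0.10 ± 0.42) were at under 0.1 RPKM on average, from 3 to 21 counts a library.

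Ephrins of the A class are held in the membrane by a lipid anchor. Efna1 read 75.5, 62.2 and 80.2 RPKM in male L6S1 and 55.0, 92.1 and 99.4 RPKM in female L6S1, against 55.5, 50.1 and 63.1 RPKM in male L345 and 52.1, 55.6 and 68.5 RPKM in female L345. It exceeded the same-sex L345 mean in 5 of 6 L6S1 libraries, all but female L6S1 A. The means were 77.4 ± 17.0 RPKM at L6S1 and 57.5 ± 7.01 RPKM at L345 (SD, n = 6 each; log2 fold change 0.43 ± 0.15, edgeR adjusted p = 0.106). Without female L6S1 B and C the estimate was 0.13, and within the RetFloxEGFP-titled libraries it was 0.15. In both, female L6S1 A was the only female L6S1 library. Efna5 averaged 16.0 ± 3.79 RPKM at L6S1 and 18.4 ± 2.69 RPKM at L345 (-0.21 ± 0.15, edgeR adjusted p = 0.37).

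Efna2 averaged 0.415 ± 0.134 RPKM at L6S1 and 0.594 ± 0.173 RPKM at L345 (SD, n = 6 each; -0.53 ± 0.30, edgeR adjusted p = 0.267). Efna3 averaged 0.169 ± 0.0734 RPKM at L6S1 and 0.0903 ± 0.0606 RPKM at L345 (0.90 ± 0.47, edgeR adjusted p = 0.234) from 92 counts in all. The exons of Gm15998, on the opposite strand, cover 14.1% of its length and drew 272 counts in all. Whether counting used strand is not stated, so reads of that pair cannot be told apart.

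Ephrins of the B class span the membrane and signal back into the cell that carries them. Efnb2 read 1.57, 1.81 and 1.66 RPKM in male L6S1 and 1.78, 1.98 and 1.75 RPKM in female L6S1, against 2.72, 1.94 and 2.79 RPKM in male L345 and 2.31, 2.76 and 1.70 RPKM in female L345. Males did not overlap between the levels, and in females L345 library D lay below all 3 L6S1 libraries, with L345 libraries B and C above them (log2 fold change -0.43 ± 0.16, edgeR adjusted p = 0.113). Efnb1 averaged 1.35 ± 0.23 RPKM at L6S1 and 1.83 ± 0.395 RPKM at L345 (SD, n = 6 each; -0.45 ± 0.19, edgeR adjusted p = 0.152). Efnb1 and Efnb2 each had 6 of 6 L6S1 values under the same-sex L345 mean, and the untested Efnb3 had 1 of 6. For these counts, and for the split of Efnb2 in males, no share over all genes is given. The plot of fold changes sets all 25 tested members side by side.

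**Figure D4:**
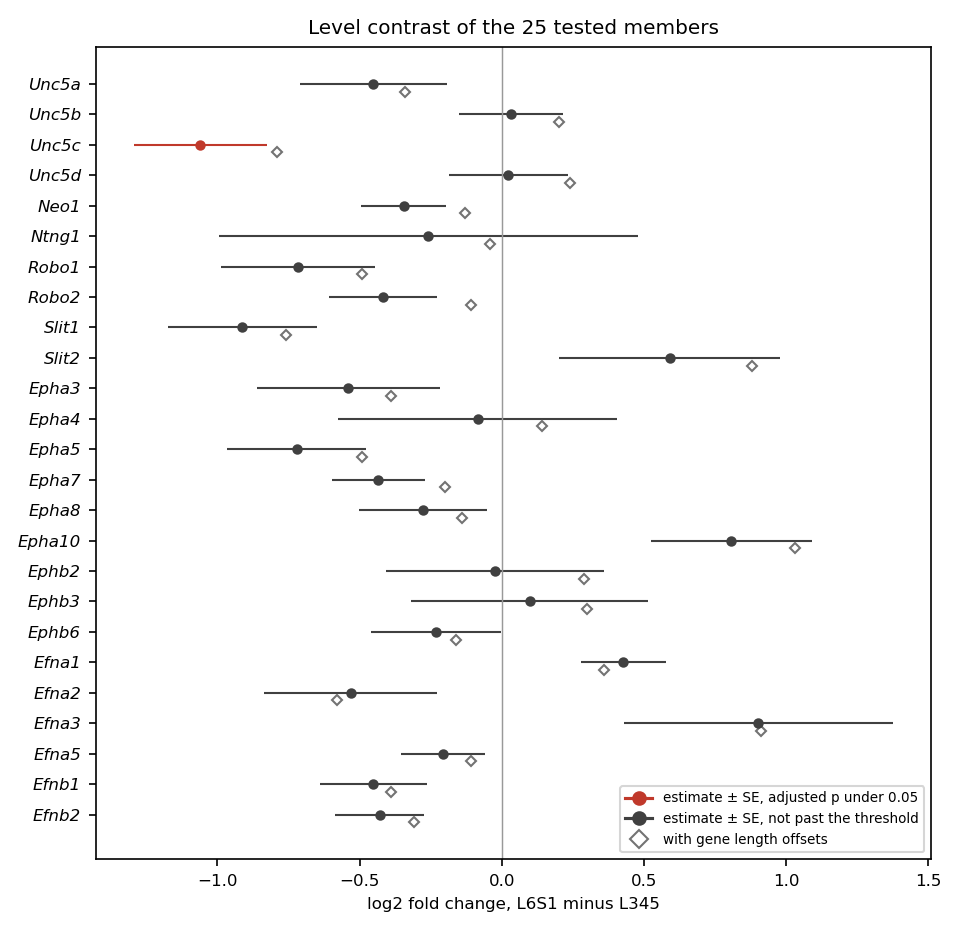
Log2 fold change of the 25 tested members, L6S1 minus L345, as estimate and SE (points and bars, Unc5c in red as the only one with an adjusted p under 0.05), and the estimate with gene length offsets (open diamonds). Estimates ran from -1.06 for Unc5c to 0.90 for Efna3.

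Summed by family, ephrin-A genes ranked above ROBO genes, and those above ephrin-B genes, at both levels. Ephrin-A genes summed to 94.0 ± 18.1 RPKM at L6S1 and 76.7 ± 9.09 RPKM at L345, and ephrin-B genes to 3.19 ± 0.212 RPKM at L6S1 and 4.28 ± 0.753 RPKM at L345 (SD, n = 6 each). ROBO genes summed to 7.19 ± 1.97 RPKM at L6S1 and 9.69 ± 1.72 RPKM at L345, and SLIT genes to 1.29 ± 0.518 RPKM at L6S1 and 2.32 ± 0.595 RPKM at L345. EPHB genes summed to 2.80 ± 0.848 RPKM at L6S1 and 3.24 ± 0.447 RPKM at L345. Ephrin-A transcripts, nearly all from Efna1 and Efna5, were thus the bulk of the set in each library, at 71.9 to 86.8% of its summed RPKM. These sums are descriptions with no test.

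The 13 members that did not pass the filter were Dcc, Ntn1, Ntn4, Ntng2, Robo3, Slit3, Epha1, Epha2, Epha6, Ephb1, Ephb4, Efna4 and Efnb3. They had 3 to 74 counts over all 12 libraries together, at most 14 in any library, and means of 0.00166 to 0.0769 RPKM. Among them, Epha2, an ephrin-A receptor gene, had the most counts (74), followed by Efnb3, a B-class ephrin gene (69), and Ephb1, an ephrin-B receptor gene (60). Epha2 read 0.0255 to 0.0806 RPKM at L6S1 and 0.0318 to 0.1 RPKM at L345, and Efnb3 0.0263 to 0.115 RPKM at L6S1 and 0.035 to 0.11 RPKM at L345, with overlapping ranges in both. Robo3, a ROBO family gene known for commissural axons, had 3 counts in all and none in 10 of 12 libraries. In the fit with no filter, which tested all 38, the 3 members called were Unc5c, Epha5 and Slit1, none of these 13.

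Genes that act with these receptors inside the cell, or bind their ligands, gave no call either. Of 19 netrin pathway partners, such as adaptors and repulsive guidance molecules, 18 were in the tables and tested and 0 were called, with a median log2 fold change of -0.32 and 9 at an unadjusted p under 0.05 (50%, against 26.6% of all genes tested). Of 14 Slit pathway partners, 13 were tested and 0 called (median -0.38, 7 or 53.8% at an unadjusted p under 0.05), and of 16 Eph pathway partners 16 were tested and 0 called (median -0.25, 4 or 25% at an unadjusted p under 0.05). All 3 medians lay below that of all genes tested, -0.06.

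Gene length moved with the level contrast, and the members are long genes. Over all genes tested, Spearman's rho between the level log2 fold change and the gene length was -0.36, given as a description because genes are not independent of each other. With the genes split by length into 5 bins of like size, the median log2 fold change was 0.22 in the shortest bin and -0.27 in the longest (6262 to 116825 bp), which holds 13 of the 25 tested members. Those 13, Unc5c (12170 bp) among them, had a median of -0.26. In the next longest bin the 5 members had a median of -0.43, against -0.14 for all genes there, and in the middle bin 4 members had -0.34, against -0.05. The second shortest bin went the other way, with 3 members at a median of 0.43, against 0.06 for all genes there. Over the 25 members alone, rho with length was -0.09. In single libraries, the longest bin lay -0.64 to 0.04 from the shortest (log2) at L6S1, against -0.15 to 0.40 at L345, with the lowest values in female L6S1 C and female L345 D. With an offset per library for gene length, the members' median was -0.13 (all genes 0.02), and Unc5c stood at -0.79 (edgeR adjusted p = 0.044). The share of length in the members' negative median was not otherwise tested.

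**Figure D5:**
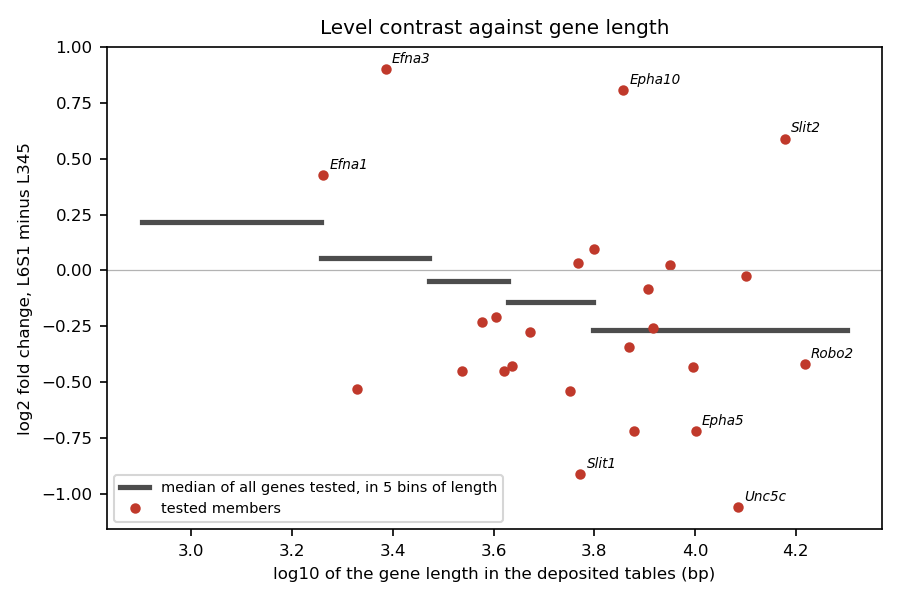
Level log2 fold change, L6S1 minus L345 (vertical axis), against log10 of gene length in bp (horizontal axis) for the 25 tested members (points), with the median of all genes tested in each of 5 bins of length (bars). The bars run from 0.22 for the shortest bin to -0.27 for the longest, and most members lie at lengths where the bar is below 0.

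Within the sexes none of the 25 genes was called. Over all genes tested, 34 were called between male L6S1 and male L345 (0.222%) and 55 between female L6S1 and female L345 (0.36%). The test of a difference in level effect between females and males called 0 members and 0 genes in all (0%, with 714 genes at an unadjusted p under 0.05, by edgeR). For Unc5c that difference was -0.25 ± 0.47 (female minus male, edgeR adjusted p = 0.96), and for Slit1 -0.31 ± 0.52 (0.954). Between females and males over both levels 9 genes were called (0.0589%), none of them a member. The member nearest to that threshold by its unadjusted p was Epha8 (log2 fold change -0.64 ± 0.23, female minus male, edgeR adjusted p = 0.764). It averaged 0.193 ± 0.0256 RPKM in female L6S1 and 0.399 ± 0.118 RPKM in male L6S1, and 0.311 ± 0.0351 RPKM in female L345 and 0.364 ± 0.0862 RPKM in male L345 (SD, n = 3 each).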

How the data were processed

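RNA of EGFP-sorted cells was amplified from 10 ng with a SMARTer kit and libraries were sequenced on a HiSeq 2500, per the labels' protocols. For each library the authors deposited the count, CPM and RPKM of 41388 Ensembl genes. The submitters' processing notes name Subread, featureCounts 1.4.5 and the build GRCm38.p2. Which annotation release and which strand option were used is not stated. Tests used only the deposited counts, which are whole numbers. The deposited CPM and RPKM equal the count scaled to the table's own total, and for RPKM to the gene length given there, in all 12 libraries, and were not tested. A reference list of gene names gave symbols for 40254 genes (97.3%) and for all 38 members. GENCODE M21 gave the exons near RefSeq starts and the GC and length of transcripts.

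The counts were fitted in edgeR 4.0.16 (R 4.3.3) by a robust quasi-likelihood F-test after filterByExpr and TMM scaling, with 1 mean for each of the 4 groups over all 12 libraries, and Benjamini-Hochberg adjustment over all genes tested. Level contrasts weighted the sexes equally. The fit was tested on simulated data, and the outcome of that run is not given here. RPKM in the text were recomputed from the counts with TMM-scaled totals. The floor of 3 counts covers counting error only. The SDs and SEs given include the spread between libraries. Libraries of 1 group differed beyond sampling noise (chi-square per degree of freedom 9.8 to 127.7), and each was a separate pool. The members and the partner and marker lists were chosen with earlier results of these data known. Values in every library are given for members called and for the member with the highest mean RPKM in each family, and partners are named only if called. Alternatives were upper-quartile and RLE scaling, no filter, DESeq2 1.42.0, limma-voom (limma 3.58.1), at least 1 CPM in 6 libraries, a title-format term, the RetFloxEGFP-titled libraries alone, a replicate block, length offsets, GC and length offsets, a glial covariate, female L6S1 B and C left out, and each library left out.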

Additional observations from a re-analysis of the deposited data

Results flagged for a closer look

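In 50 sets of 6 libraries (25 tested members at each level), 4 had a library set apart from the other 5 by more than 0.625 of the whole range, Dixon's critical value, and chance alone flags about 1 in 20 sets. Unc5d, a netrin receptor gene, was at 0.314 RPKM in female L6S1 C, below the other L6S1 libraries at 0.671 to 0.872 RPKM. Robo2, a Slit receptor gene, was at 6.14 RPKM in female L345 D, below the other L345 libraries at 9.57 to 10.6 RPKM. Epha4, an ephrin receptor gene, was at 0.131 RPKM in female L345 C, above the other L345 libraries at 0.0186 to 0.0566 RPKM. Ephb6, a kinase-inactive Eph receptor gene, was at 1.05 RPKM in female L6S1 B, below the other L6S1 libraries at 2.34 to 3.12 RPKM. All 4 libraries were female, and 3 of them carry titles of the 9CGNAV format.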

How the results depend on the processing

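Of the 25 tested members, 18 kept the sign of their level estimate in every alternative; the other 7 (Unc5b, Unc5d, Ntng1, Epha4, Epha8, Ephb2 and Ephb3), called in none, did not. Against 1 member called between the levels, where 2.33% of all genes were called, the count was 3 with DESeq2 (10.8% of all genes), with no filter (3.15%) and with GC and length offsets (7.41%), and 7 with limma-voom (21.4%). It was 0 with the title format as a term (0.818%), with the glial covariate (0.38%) and without female L6S1 B and C (0.848%). It was 0 to 7 over the fits that left out 1 library, 7 without female L6S1 A (25.7%) and 2 without female L345 D (5.63%). In males it was 6 with limma-voom, against 0. In females it was 1 with DESeq2 and with no filter and 0 to 4 with 1 library left out, against 0. For sex it was 0 to 1 (Slit1, without female L6S1 A), and for the interaction 0 throughout. For the male, female and sex counts the share of all genes called in the same fit is not given here. Whether those counts exceed that background cannot be told. The members' median of -0.28 was -0.42 with at least 1 CPM in 6 libraries (18 members tested), -0.13 with length offsets, and -0.39 to -0.21 over the same 25 genes with 1 library left out. The cause was not tested.

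With a replicate block (sex and letter) 11 members were called between the levels, where 34.9% of all genes were. Within the sexes the block called 7 members in females and none in males, and the shares of all genes there are not given. Female L6S1 A and female L345 D had no library of their letter at the other level. In this fit they therefore added nothing to the level estimate. Same-lettered libraries correlated in their deviations at 0.018 to 0.233 over 5 pairs. Male A, B and C and female B correlated better with their own letter than with another (at most 0.034). Female C correlated better with another letter (0.239). The letters are thus not shown to pair libraries throughout, and a sex effect could not be fitted with the block. Of the 38 members, 13 had too few counts for the test.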
